A study of Mus musculus with 3 samples.

Results

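The interferon-stimulated genes described here are 36 named genes of 31053 in the matrices, chosen by name, with no threshold on a measured value: genes that interferons are known to induce, among them 2 chemokine genes, sensors of foreign nucleic acid and the transcription factor Stat2. All 36 were present in the files of all 3 mice. They were sorted by role into 8 IFIT, OAS and MX genes, called the type I genes below, 3 interferon-gamma genes (Cxcl9, Gbp2 and Irgm1), 15 other effectors linked to type I interferon, 4 sensors of nucleic acids, 4 further guanylate-binding and immunity-related GTPases, Stat2 and the chemokine gene Cxcl10. The study had 1 group, macrophages of MMTV-PyMT mammary tumours, with 1 library for each of 3 mice of the strain FVB/N-Tg(MMTVPyVT)634Mul/J. In this strain the mammary tumour virus promoter drives the polyoma middle T antigen in mammary epithelium. Each tumour measured 750 mm3, and cells had been sorted as CD45+, Ly6G-, CD11b+ and F4/80+ and prepared with 10x 3' v3 chemistry. There was no tumour-free control, and no age of the mice is used here.

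Type I interferons signal through IFNAR1 and IFNAR2 and the kinases TYK2 and JAK1 to a complex with STAT2 and IRF9, which binds the interferon-stimulated response element. Interferon-gamma signals through IFNGR1 and IFNGR2 and the kinases JAK1 and JAK2 and acts on a different element, the gamma-activated site. Both pathways raise overlapping sets of genes in macrophages, and CXCL9 and CXCL10 are ligands of CXCR3, a receptor that draws activated T cells into tissue.

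Short stretches upstream of 9 members are shown first, chosen because each holds letters of the interferon-stimulated response element. Only some of the type I genes and of the interferon-gamma genes held these letters. They come from RefSeq on build GRCm38.p6, run 5′ to 3′ on the gene's strand and end upstream of the start annotated in RefSeq. Capitals mark each match, on either strand, to GAAA followed after any 2 bases by GAAA. Overlapping matches run together.

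Ifit1: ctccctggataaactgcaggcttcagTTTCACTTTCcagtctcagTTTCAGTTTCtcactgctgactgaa
Ifit3: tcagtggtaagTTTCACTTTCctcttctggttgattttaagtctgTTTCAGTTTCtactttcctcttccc
Ifit3b: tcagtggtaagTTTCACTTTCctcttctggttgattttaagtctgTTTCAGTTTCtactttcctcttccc
Isg15: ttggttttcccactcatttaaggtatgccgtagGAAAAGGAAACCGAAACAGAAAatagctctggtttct
Rsad2: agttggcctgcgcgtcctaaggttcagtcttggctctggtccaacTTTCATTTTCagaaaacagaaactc
Cxcl10: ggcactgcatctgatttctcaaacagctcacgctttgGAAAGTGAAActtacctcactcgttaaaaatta
Gbp2: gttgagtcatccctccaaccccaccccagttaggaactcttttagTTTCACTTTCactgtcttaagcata
Irgm1: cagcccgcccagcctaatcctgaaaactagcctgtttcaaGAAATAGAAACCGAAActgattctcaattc
Igtp: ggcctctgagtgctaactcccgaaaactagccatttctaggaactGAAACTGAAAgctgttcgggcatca

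These stretches lie at chr19:34640759-34640828 for Ifit1, chr19:34583362-34583431 for Ifit3 and chr19:34607758-34607827 for Ifit3b, all on the plus strand. Isg15 is at chr4:156200860-156200929 (minus), Rsad2 at chr12:26456548-26456617 (minus) and Cxcl10 at chr5:92349070-92349139 (minus). Gbp2 is at chr3:142620559-142620628 (plus), Irgm1 at chr11:48871421-48871490 (minus) and Igtp at chr11:58199477-58199546 (plus). The gene positions given further below are from GENCODE, which starts Gbp2 and Irgm1 farther upstream than RefSeq. By GENCODE the Irgm1 stretch lies inside the gene, and the Gbp2 stretch spans the start with its match inside the gene. The stretches of Ifit3 and Ifit3b are the same sequence. The table held 31 of the 36 members; Dhx58, Mx1, Rtp4, Usp18 and Zbp1 were not matched. In the 250 bases before the RefSeq start, 15 of these 31 members held this pair of GAAA boxes. Over all 27025 genes the share was 3.46% (2.98% of the 32851 promoters), a gene with several starts counting once in both counts. The match was in 4 of 7 type I genes, in 2 of 3 interferon-gamma genes (Gbp2 and Irgm1), in 3 of the 4 further GTPases and in Cxcl10. TTC followed after any 3 bases by GAA, a palindrome with the letters of a gamma-activated site that was searched on its own and may overlap the first motif, was in 6 of 31 members (Ifit2, Samhd1, Isg20, Bst2, Gbp7 and Igtp), against 8.13% of all genes (7.02% of the promoters). Oasl1, Ifitm3 and Cxcl9 held neither set of letters in this window. A match is a description of letters, not a bound site.

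After filtering, 9749 cells remained, 663, 2108 and 6978 in mice 1, 2 and 3, with median depths of 15014, 13600 and 9318.5 UMIs. No barcode was shared between mouse 1 and the others, and 7 were shared between mice 2 and 3. Clustering without the members and their pathway genes gave 14 macrophage states, each with at least 10 cells in every mouse, and set aside 55 tumour epithelium-like and 9 T cell-like cells. At least 10 of 11 macrophage lineage markers were each detected in 10% or more of the cells of every state. States 10 and 13 had median depths under 2000 UMIs, and the members' values there rest on few UMIs.

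Levels are given as CPM, a gene's UMIs scaled to a fixed total of UMIs in the 14 macrophage states of a mouse, in the order of mice 1, 2 and 3. A UMI counts a molecule from its 3' end, so levels were not divided by transcript length. Mean levels ran from 2.003 CPM for Ifit3b to 635 CPM for Ifitm3. Ifitm3, a membrane protein that blocks viral entry, was the highest at 882, 629 and 393. Cxcl10 was at 193, 118 and 123, and Bst2, the tether that holds virus particles at the cell surface, at 199, 152 and 158. Isg15, the ubiquitin-like modifier, was at 98.5, 119 and 104, and Samhd1, which breaks down deoxynucleotides, at 124, 143 and 91.2. No mouse was the highest for all 5 of these members.

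**Figure D1:**
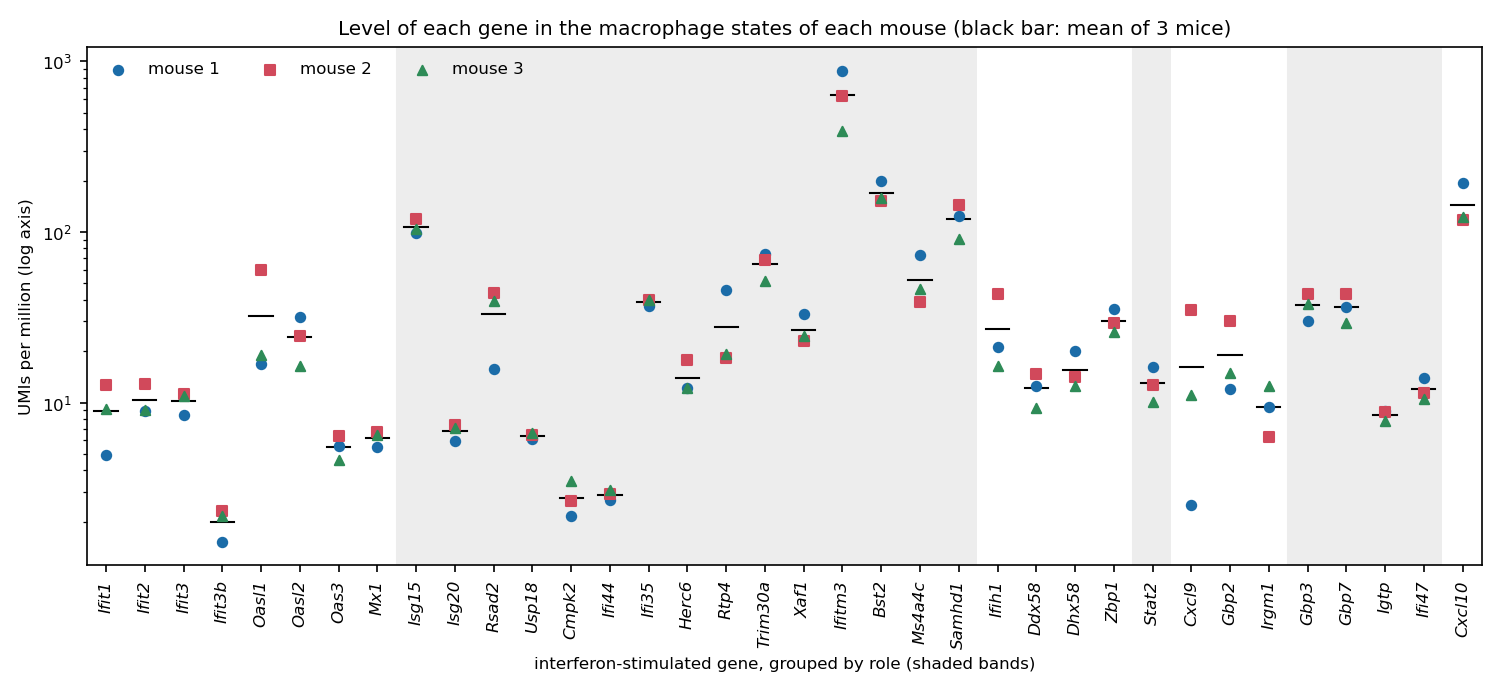
CPM (log axis) of the 36 members in the macrophages of mice 1, 2 and 3, with the mean as a bar and roles as shaded bands. Ifitm3 is the highest member, and the mice are farthest apart for Cxcl9, at 2.51, 35.0 and 11.03.

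The type I genes were low. The IFIT proteins form complexes that bind foreign RNA: Ifit1 (chr19:34640871-34650009, mm10) was at 4.94, 12.7 and 9.14, Ifit2 at 8.98, 12.9 and 9.05, and Ifit3 at 8.44, 11.2 and 10.9. Ifit3b, the copy beside Ifit3, was at 1.53, 2.32 and 2.16. The 2 genes are near-identical in part: 44.5% of the 50-base words of the Ifit3b transcript occur in Ifit3, so the counting could have lost or split reads between them, and both values are uncertain. In the last 500 bases, where a 3' kit reads, 0% of the Ifit3b words and 14.9% of the Ifit3 words were in the other transcript. Oasl1 (chr5:114923240-114937915), an inhibitor of Irf7 translation, was at 16.9, 60.1 and 18.9, with mouse 2 far above the others. Oasl2 was at 31.6, 24.4 and 16.3, Oas3, a synthetase of the activator of RNase L, at 5.57, 6.39 and 4.58, and Mx1, a dynamin-like GTPase, at 5.48, 6.77 and 6.43.

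Among the interferon-gamma genes, Cxcl9 (chr5:92321347-92328079) was at 2.51, 35.0 and 11.03, the widest spread of any member. Gbp2 (chr3:142620602-142638008), a guanylate-binding protein that attacks membranes around intracellular microbes, was at 11.9, 30.02 and 14.9. Irgm1 (chr11:48861968-48871683), a GTPase that regulates the related Irg proteins, was at 9.43, 6.24 and 12.5. Cxcl9 and Gbp2 were highest in mouse 2, and Irgm1 was lowest there. Of the other members, Rsad2 (viperin, which makes a chain-terminating nucleotide) was at 15.7, 43.8 and 39.4, Cmpk2, its neighbour that supplies its substrate, at 2.15, 2.65 and 3.46, and Ifi44 at 2.69, 2.90 and 3.06. The other 17 members had mean levels from 6.40 CPM for Usp18, the protease that removes ISG15, to 64.9 CPM for Trim30a.

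The members' UMIs were spread over cells in very different ways. Cxcl9 was the extreme: only 237 of 9685 macrophages held any of its UMIs, and the 1% of cells with most of them (7, 21 and 69 cells) held 96.4%, 84.2% and 92.4% of the total. One cell of mouse 2 had 189 Cxcl9 UMIs, of 1403 in that mouse. Gbp2, with a similar mean level, was found in 1407 cells, and its top 1% held 25.8% ± 4.48 (SD, n = 3). Irgm1 was like Gbp2 at 23.2% ± 3.09. Of the type I genes, Ifit1 had 56.6% ± 10.2 in the top 1% and Ifit2 64.4% ± 6.20, while Oasl1 had 30.4% ± 9.62 and Oasl2 22.8% ± 6.04. Rsad2 had 63.5% ± 14.2 and Cxcl10 39.8% ± 8.70, with up to 555 Cxcl10 UMIs in 1 cell. Ifitm3 and Samhd1 were spread widely, at 12.3% ± 1.45 and 8.97% ± 0.880. A rarer gene has a larger share in few cells by counting alone, so the values compare best between genes of like level, such as Cxcl9 with Gbp2 and Rsad2 with Oasl1. In the 55 tumour epithelium-like cells Cxcl9, Rsad2, Oasl1 and Mx1 had 0 UMIs, which allows a level of up to 5.31 CPM.

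**Figure D2:**
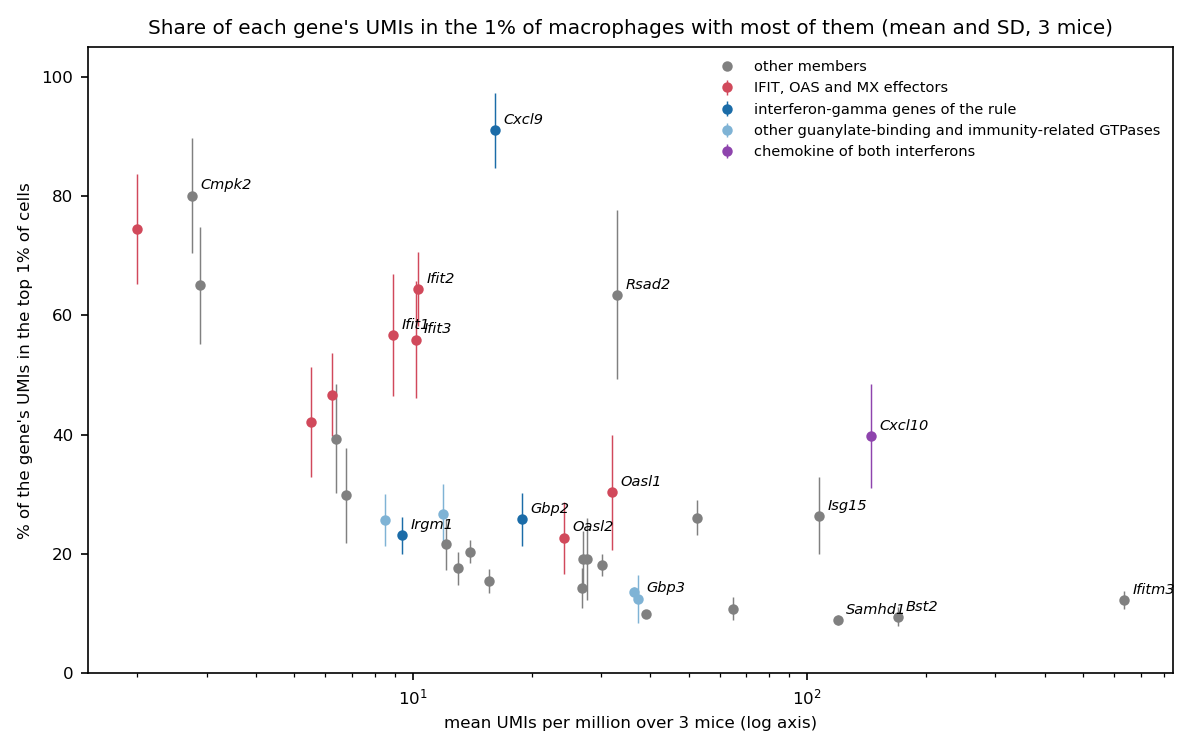
Share of each member's UMIs in the 1% of macrophages that hold most of them (mean and SD of 3 mice), against its mean level on a log axis. Cxcl9 stands at 91.0%, far above Gbp2 at 25.8%, and Rsad2 at 63.5% is above Oasl1 at 30.4%.

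The first question was which members differ among macrophage states. UMIs were summed per mouse and state and fitted with edgeR's quasi-likelihood test with the mouse as a block. Ifit3b had too few UMIs to be tested, and 24 of the other 35 members differed among the states at an adjusted p under 0.05, where 79.8% of all 9943 genes did and 78.4% of the genes not used to cluster. Their median F was 3.42, against 4.23 over all genes tested. With the mouse as a block, the p-values measure how far state differences vary among 3 mice, pooled over the states. Ifitm3 (F = 34.6), Samhd1 (32.8) and Oasl1 (28.6) differed the most. Those that did not pass were Ifi44, Cmpk2, Rsad2, Herc6, Ifit2, Dhx58, Mx1, Gbp2, Ms4a4c, Oas3 and Cxcl9, with the lowest F at 1.06 for Ifi44, 1.09 for Cmpk2 and 1.19 for Rsad2. By role, 4 of 7 type I genes, 10 of 15 other effectors, 3 of 4 sensors, 1 of 3 interferon-gamma genes (Irgm1) and all 4 further GTPases differed, as did Stat2 and Cxcl10.

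Each state was then compared with the unweighted mean of the others, in log2 units with the standard error. Over all states 63 pairs of member and state were called higher and 20 lower, and without mouse 2 these were 31 and 13, without mouse 3 46 and 10. In each state 35 members were tested. Of all genes, 2.44% (state 12) to 25.2% (state 1) were called higher, and 0.322% (state 2) to 18.7% (state 13) lower. The pair counts alone therefore do not show that members were called more often than other genes. With all mice 10, 13, 12, 7 and 9 members were higher in states 0, 1, 4, 8 and 9, and without mouse 2 these were 5, 6, 3, 3 and 4. Without mouse 3 they were 3 in state 0 and 4 in state 4, and the 5 lower in state 3 were 2. Where a state had 0 calls in a direction, at most 1 member had an unadjusted p under 0.05 and DESeq2 called at most 1. Of 49 named pairs, 13 were called in every setting that gave a value: Ifitm3 in states 1, 3, 8 and 9, Oasl1 in states 1, 6 and 8, Samhd1 in states 8 and 11, Gbp3 in states 0 and 9, Cxcl10 in state 7 and Bst2 in state 13.

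The alternative activation-like state 8, led by Retnla, Fn1 and Ear2, had 7 members higher and 0 lower, where 20.3% and 5.43% of all genes were called higher and lower, so the higher count was near the background. Ifitm3 was at 2677, 1346 and 1162 CPM there, above its whole-library level in each mouse, and its log2 fold was 2.58 ± 0.19 (edgeR, adjusted p = 1.6e-11). Oasl1 was at 60.4, 132 and 47.3, with a log2 fold of 2.21 ± 0.17 (edgeR, adjusted p = 4.6e-12). Samhd1 was at 315, 243 and 161, with a fold of 1.27 ± 0.09, and Ddx58, the RNA sensor RIG-I, had 1.09 ± 0.33. The Ddx58 difference was -0.067 with clusters at resolution 0.5. The summed level of 12 dendritic cell markers, none of them at 0, was 377 ± 224 CPM in this state, against 89.1 to 174 in the other states, and its median depth was 27334 UMIs. The summed level of 12 monocyte markers (Ccr2, Ly6c2, Chil3, Fn1 and Plac8 among them), none at 0, was also the highest of any state, at 3978 ± 555 CPM. Their part in the result was not tested.

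The states called LYVE-1 resident-like from their markers shared part of that pattern. Lyve1 itself was detected in 12.1%, 22.9% and 41.7% of the cells of states 1, 2 and 9, and in 16.9% in state 8. Ccr2 was detected in 70.0%, 64.7% and 57.1%, and in 98.2% in state 8. The name thus stands for a list of markers, and most cells of these states had no Lyve1 UMI. State 1 also had the monocyte markers Chil3, Plac8 and S100a4 among its leading genes. The summed level of the 12 monocyte markers was 2160 ± 904 CPM in state 1, with none at 0, 1190 ± 553 in state 9, with 1 at 0, and 891 ± 187 in state 2, with none at 0. It was 114 to 887 CPM in the states other than these and state 8. State 1 was thus nearer to state 8 in these markers than states 2 and 9 were, and their part in the results of these states was not tested. State 1 had 13 members higher and 1 lower, where 25.2% and 7.38% of all genes were called. State 9 had 9 higher and 1 lower, where 17.1% and 7.69% were. Ifitm3 stood at 2376, 976 and 1019 CPM in state 1 and at 1815, 1023 and 1081 in state 9, with log2 folds of 2.43 ± 0.19 and 2.11 ± 0.20. Oasl1 was at 39.0, 82.0 and 27.7 in state 1 and at 28.5, 68.1 and 27.8 in state 9, with folds of 1.57 ± 0.20 and 1.13 ± 0.26. The Oasl1 difference in state 9 was -0.025 with clusters at resolution 1.5. Rtp4, a chaperone of receptors, rose by 1.44 ± 0.38 and 1.41 ± 0.47 in these states, Isg20, an exonuclease, by 1.44 ± 0.36 in state 1, and Ddx58 by 1.48 ± 0.35 in state 9. Gbp3 fell in both, by 0.50 ± 0.15 in state 1 and by 0.90 ± 0.20 in state 9. The third LYVE-1 resident-like state, 2, had only Ddx58 (1.06 ± 0.31) and Ifitm3 (1.02 ± 0.22) higher and none lower, with 13.6% and 0.322% of all genes called. Ifitm3 in state 2 had a log2 fold of -0.038 when set against all other cells of the mouse in place of the mean of states.

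The hypoxia-like state 4, with Arg1 and Bnip3 among its leading genes, had the highest mean levels of Ifit1, Ifit2, Ifit3 and Mx1. These levels rest on part of its cells. With interferon genes kept in clustering, 2.08%, 12.1% and 16.8% of its cells (mice 1, 2 and 3) joined 1 cluster led by those genes. Without them the summed IFIT level of state 4 was 5.45 ± 5.20 CPM (SD, n = 3), against 80.1 ± 47.3 with them. In state 8, which had only 4 cells in that cluster, it was 32.5 ± 19.3 against 34.4 ± 17.7. A fall is built in where cells are set aside by these genes, and little change where few are. The 2 states are therefore not a contrast. State 4 had 12 members higher and 0 lower, where 13% and 5.08% of all genes were called. At an unadjusted p under 0.05 there were 22 higher and 1 lower, and DESeq2 called 5 higher and 1 lower. Ifit3 was at 15.2, 51.7 and 24.3 CPM, with a log2 fold of 1.62 ± 0.36 (edgeR, adjusted p = 0.0025). Mx1 was at 7.58, 25.4 and 10.6, with 1.46 ± 0.39 (edgeR, adjusted p = 0.0098), and Ifit1 at 12.99, 34.9 and 13.3, with 1.36 ± 0.40 (edgeR, adjusted p = 0.017). Mx1 did not pass the test over all states, nor did Ms4a4c, a membrane-spanning protein, with 0.99 ± 0.30 in this state, and Usp18, Rtp4, Isg20, Oasl2, Ifi35, Xaf1, Bst2 and Zbp1 were also higher here. Mouse 2 was the highest for Ifit3, Mx1 and Ifit1. Without it Ifit3 was at 1.32 (edgeR, adjusted p = 0.19) and Mx1 at 0.98 (edgeR, adjusted p = 0.47), and Ifit1 without mouse 1 was at 1.18 (edgeR, adjusted p = 0.16). Irf7, the amplifier of type I interferon, was also higher in this state, by 1.11 ± 0.27, while Irf1, a target of interferon-gamma, fell by 0.77 ± 0.19. Irf1 does not stand for the interferon-gamma genes here. None of Cxcl9, Gbp2 and Irgm1 was called, and of 19 further interferon-gamma genes tested 2 were higher and 3 lower. The summed level of Cxcl9, Gbp2 and Irgm1 was 14.1, 132 and 46.9 CPM, with a mean of 64.2, against 66.5 in state 6, the highest mean of the macrophage states.

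Inflammatory-like state 0 had 10 members higher and 1 lower, where 22.8% and 5.96% of all genes were called, a share near the background for the higher calls. DESeq2 called 2 members higher and 3 lower. Gbp3, a guanylate-binding GTPase, was the steadiest: 65.5, 65.1 and 66.7 CPM, with a log2 fold of 1.23 ± 0.12 (edgeR, adjusted p = 3.2e-12). Isg15 rose by 1.18 ± 0.30, Cxcl10 by 1.01 ± 0.31 and Ifi35 by 0.66 ± 0.12, and Ifitm3 fell by 0.92 ± 0.27. Gbp2 was at 11.7, 34.8 and 22.6 CPM, with a fold of 0.60 ± 0.20 (edgeR, adjusted p = 0.020), though it did not pass the test over all states. Against all other cells of the mouse, the Cxcl10 difference was 0.59 (edgeR, adjusted p = 0.20). Of 19 further interferon-gamma genes tested, 12 were higher in this state and 0 lower, and Jak2, Irf1 and Ifnar1 of the pathway rose by 1.52 ± 0.11, 0.79 ± 0.13 and 0.59 ± 0.10. The summed level of 12 T cell markers, 4 of them at 0, was 246 ± 101 CPM here, against 32.1 to 200 in the other states with more than 2000 UMIs, and their part was not tested.

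Lipid-associated-like state 3 stood at the low end, with 1 member higher and 5 lower, where 11.8% and 1.9% of all genes were called. Ifitm3 was at 122, 70.2 and 53.5 CPM, with a log2 fold of -2.08 ± 0.32. Oasl1 was at 4.34, 7.45 and 4.56 (-1.71 ± 0.35) and Oasl2 at 15.2, 11.2 and 3.70 (-1.63 ± 0.33). Xaf1, a promoter of cell death, fell by 0.65 ± 0.20, and Gbp3 rose by 0.66 ± 0.14.

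State 6, unnamed and with Txnip and Tifab among its leading genes, had immunity-related GTPases higher and Oasl1, Isg15 and Cxcl10 lower. It had 4 members higher and 4 lower, where 21% and 13% of all genes were called. Irgm1 was at 25.7, 12.2 and 18.8 CPM, with a log2 fold of 0.85 ± 0.19 (edgeR, adjusted p = 0.00033), and Igtp, another immunity-related GTPase, rose by 1.13 ± 0.24 and Ifi47 by 0.56 ± 0.22. Stat2 was also higher. With at least 1000 genes per cell the Ifi47 difference was -0.082 and that of Irgm1 0.37 (edgeR, adjusted p = 0.30). Oasl1 was at 3.12, 5.62 and 2.29, with a fold of -2.76 ± 0.38 (edgeR, adjusted p = 1.1e-06). Cxcl10 was at 14.8, 62.5 and 26.2, with -1.76 ± 0.43 (-2.18 with an edgeR adjusted p of 0.14 against all other cells), and Isg15 fell by 1.53 ± 0.42. Jak2 and Ifnar1 fell here by 1.59 ± 0.17 and 0.66 ± 0.12, and Ifngr1 rose by 0.47 ± 0.10.

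Cxcl10 was highest in the cycling states. In G2 and mitosis-like state 7 it was at 653, 268 and 347 CPM, with a log2 fold of 1.89 ± 0.29 (edgeR, adjusted p = 8.2e-06), and in S phase-like state 11 at 687, 160 and 331, with 1.82 ± 0.32. Both exceeded the mouse's whole-library level in each mouse. In state 7 Cxcl10 was the only member higher and Samhd1 the only one lower (-0.49 ± 0.10), where 16.6% and 6.36% of all genes were called. With clusters at resolution 1.5 the Samhd1 difference was 0.016. In state 11 Cxcl10 was the only member higher, and Samhd1 (-0.86 ± 0.13) and Gbp7 (-0.93 ± 0.25) were lower, where 18.7% and 11.2% were. Against all other cells of the mouse, the difference was 1.68 in state 7 (edgeR, adjusted p = 0.0027) and 1.32 in state 11 (edgeR, adjusted p = 0.17). Heat-shock and immediate-early-like state 5 had Cxcl10 (1.16 ± 0.32) and Gbp3 (0.43 ± 0.14) higher and Oasl1 lower (-1.69 ± 0.36), where 12.2% and 4.44% of all genes were called.

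**Figure D3:**
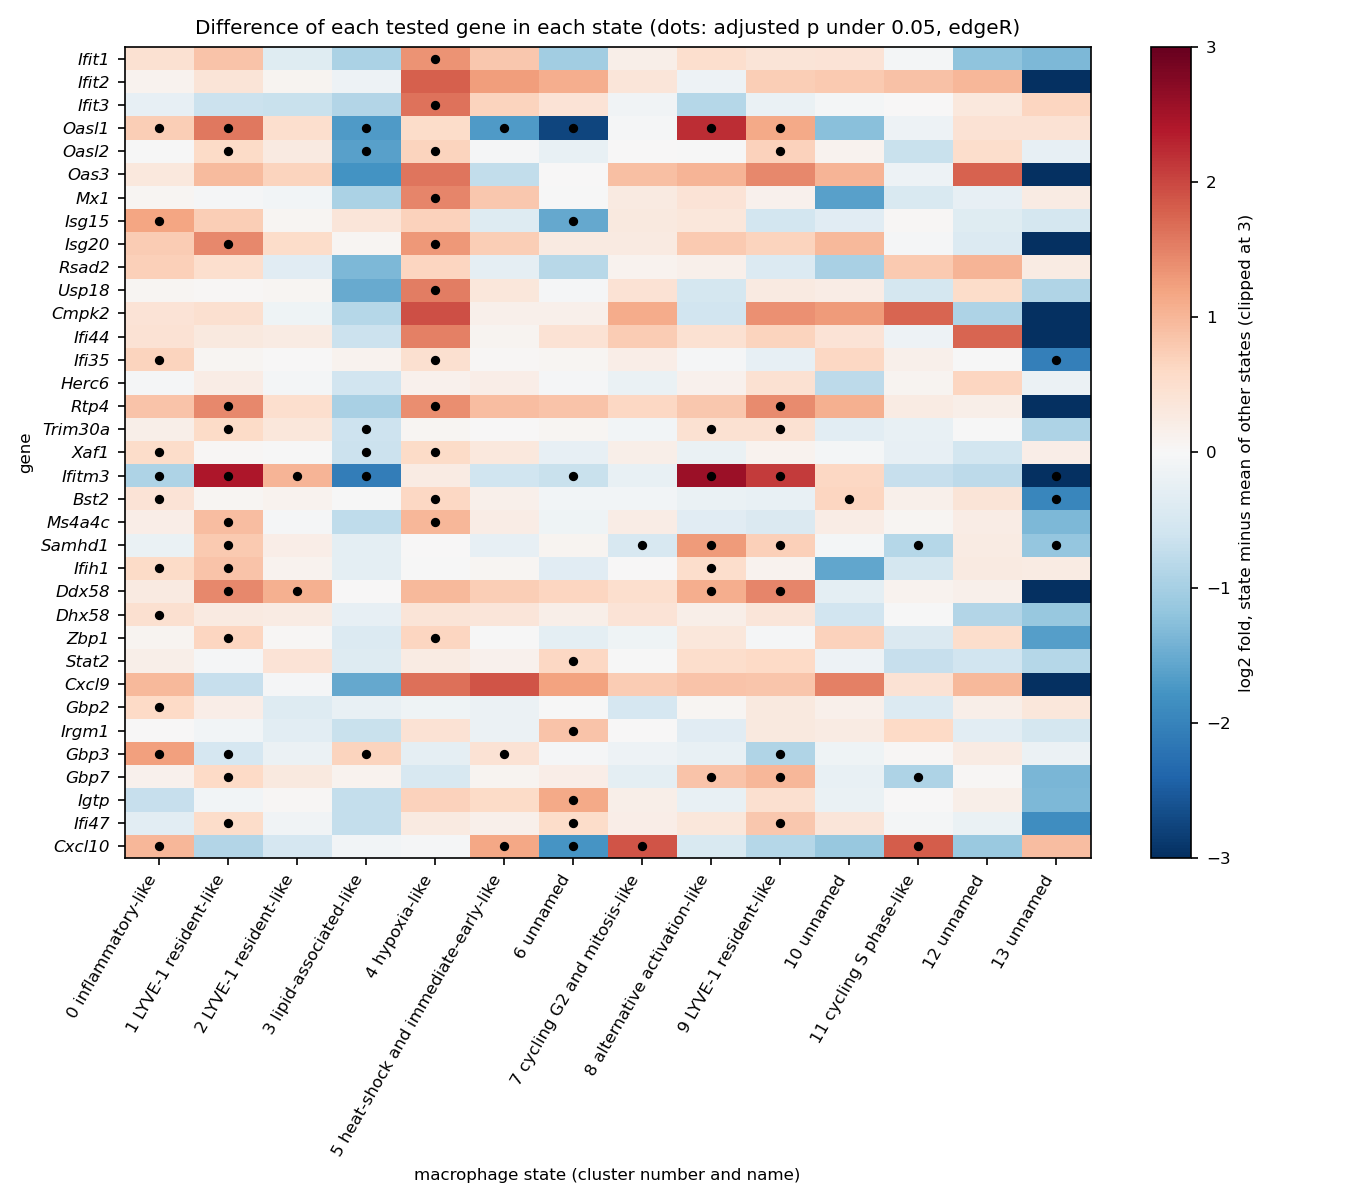
Log2 fold of each tested member (rows, by role) in each macrophage state (columns) against the mean of the others, with colours clipped at 3 and dots for adjusted p under 0.05. Oasl1 and Ifitm3 are high in states 1, 8 and 9 and low in state 3, Ifit1, Ifit3 and Mx1 are high in state 4, and Cxcl10 is high in states 7 and 11; dark blue cells of state 13 include genes with 0 UMIs there.

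The remaining 3 states had few calls. Unnamed state 12 had no member higher or lower by edgeR, where 2.44% and 1.25% of all genes were called; at an unadjusted p under 0.05, and by DESeq2, it had 1 in each direction. State 10 had Bst2 higher (0.64 ± 0.13) and none lower, where 9.49% and 8.03% of all genes were. State 13 had Ifitm3, Ifi35, Bst2 and Samhd1 lower and none higher, where 18.7% and 5.85% of all genes were, and the median over all genes was itself -0.63.

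The second question was how the type I genes compare with Cxcl9, Gbp2 and Irgm1 across states. The log2 ratio of their summed CPM was highest in state 8, at 3.57, 1.65 and 0.90 in mice 1, 2 and 3 (mean 2.04 ± 1.38, SD, n = 3). It followed in state 1 (1.88 ± 0.774) and state 4 (1.71 ± 1.01). It was lowest in state 3, at 0, 0.052 and 0.54 (0.20 ± 0.295), and in state 6, at 1.14, 0.092 and -0.55 (0.23 ± 0.852), then in state 0 (0.43 ± 0.332). No test was made of this ratio; state 8 lay above state 3 in each mouse, while neighbours in the order lay within their spread. Mouse 1 had the highest ratio in most states, but with few UMIs: its interferon-gamma genes had 7 in state 8 and 12 in state 3. The order at both ends changed with how the ratio was made. State 4 was the highest with the mean of log2(CPM + 1) in place of the sum, at 0.49, where state 0 was the lowest at -1.23. It was also the highest with the 4 further GTPases added to the interferon-gamma genes, at 0.21, and 12 of the 14 states were then below 0, down to -1.87 in state 3. With the IFIT and MX genes only, an alternative added after seeing the data, state 4 was at 0.94, states 8 and 1 were at 0.16 and 0.13, and state 10 was the lowest at -1.18. Without mouse 1, state 1 was the highest at 1.45, with state 8 at 1.27, and state 6 the lowest at -0.23. Without Cxcl9, states 8 and 4 were at 2.59 and 2.57, and state 3 was the lowest at 0.35.

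**Figure D4:**
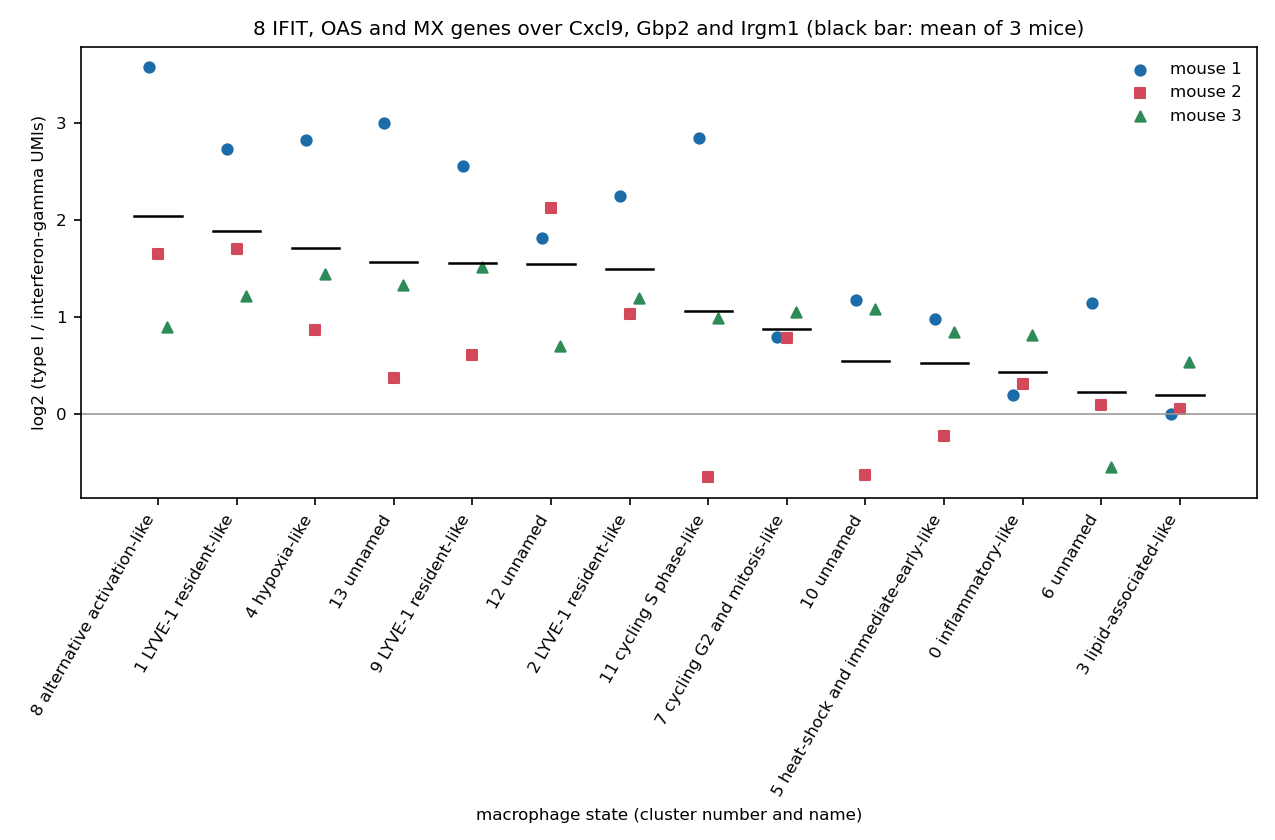
Log2 ratio of the summed UMIs of the 8 type I genes over Cxcl9, Gbp2 and Irgm1 in each state, by mouse, with the mean as a bar. States run from 8 (mean 2.04) to 3 (mean 0.20), and mouse 1 is the highest in most states.

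The third question was whether the same cells carry both sets. Cells were thinned to 5000 UMIs each, and a macrophage was called type I-high with at least 3 UMIs of the 8 type I genes and gamma-high with at least 3 of Cxcl9, Gbp2 and Irgm1. These are ranges of a count, not cell types. Cells under 5000 UMIs (104, 275 and 843) were left out. Exactly 3 type I UMIs were in 10, 39 and 74 cells, and 32, 90 and 126 cells lay just below. Of 8498 cells, 354 were type I-high: 4.12%, 6.46% and 3.48% of mice 1, 2 and 3 (exact 95% intervals 2.63 to 6.12, 5.38 to 7.69 and 3.04 to 3.97, counting error only). Without thinning the shares were 14.1%, 21.1% and 7.48%. Type I-high cells held 59.2% ± 9.75 of all type I UMIs. They were found in every state except 13, with the highest mean shares in state 8 (20%, 16.0% and 4.31%, with 15 cells in mouse 1), state 4 (4.44%, 8.82% and 6.48%) and state 9 (3.33%, 11.1% and 4.88%). Gamma-high cells were fewer, 98 in all: 0.358%, 1.86% and 1.01%, or 3.19%, 8.91% and 3.30% without thinning. Only 32 cells were both. Among type I-high cells 4.35%, 7.63% and 10.3% were gamma-high, and among the others 0.187%, 1.46% and 0.678%, so the share was higher among type I-high cells in all 3 mice. In mouse 1 it rests on 1 cell.

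The other members were then tested in type I-high cells against the other macrophages of the same mouse, with the 8 genes of the rule left out, in a test added after seeing the data. Of 28 members, 27 could be tested, and 22 were higher and none lower, where 2.94% and 0.142% of 8428 genes were called (edgeR on thinned sums, mouse as a block, adjusted p under 0.05). At an unadjusted p under 0.05, 26 were higher and 0 lower. The filter of this fit could admit a gene through the type I-high profiles alone. A higher level is built in for such a gene, so the count of 22 is a description. With no filter, 26 of the 27 kept their side of the threshold and 1 more passed. The median log2 fold of the 27 was 2.75, against -0.03 over all genes. All 3 interferon-gamma genes were among the 22. Gbp2 was at 43.5, 94.9 and 80.8 CPM in type I-high cells and at 15.7, 25.3 and 14.4 in the others, a log2 fold of 2.16 ± 0.20 (edgeR, adjusted p = 2.2e-12). Irgm1 was at 52.2, 22.03 and 83.6 against 8.97, 5.97 and 9.15, a fold of 2.80 ± 0.26 (edgeR, adjusted p = 1.6e-12). Cxcl9 was at 0, 231 and 81.7 against 0.748, 27.8 and 9.66, a fold of 3.07 ± 0.19, higher in 2 of 3 mice. It was detected in 0%, 8.47% and 6.10% of the type I-high cells and in 0.187%, 2.17% and 1.27% of the others. Its fold thus rests on few cells of mice 2 and 3. Of the further GTPases, Ifi47 (3.57 ± 0.22), Igtp (3.12 ± 0.26) and Gbp7 (1.43 ± 0.19) rose. All 4 sensors rose, from 2.24 ± 0.23 for Dhx58 to 2.90 ± 0.24 for Ddx58, and Stat2 rose by 2.28 ± 0.26.

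Cmpk2 had the highest fold of the 27, 6.31 ± 0.41, and Usp18 had 4.61 ± 0.57. Cmpk2 was at 26.1, 28.8 and 69.5 CPM against 0.748, 0.351 and 0.780, and Usp18 at 8.70, 50.8 and 101 against 6.36, 2.46 and 2.68. Both were low in the other macrophages. The filter could have admitted them through the type I-high profiles, so their folds are a description. Ifitm3, at 1696, 1498 and 1440 against 867, 449 and 333, rose by 1.59 ± 0.19, and Samhd1 by 1.45 ± 0.15. The 5 that did not pass were Rsad2, Isg15, Rtp4, Cxcl10 and Gbp3. Rsad2 was at 304, 492 and 851 against 6.36, 21.0 and 7.76, so the groups did not overlap, with 5.70 ± 0.77 (edgeR, adjusted p = 0.21). Cxcl10 was at 235, 456 and 1234 against 152, 104.8 and 78.1, with 2.51 ± 0.97 (edgeR, adjusted p = 0.65), and Gbp3 had 0.65 ± 0.20 (edgeR, adjusted p = 0.063), higher in 2 of 3 mice. With 1 pair of profiles for each state and mouse with at least 3 such cells, 13 members could be tested in 25 pairs and all 13 were higher, where 4.79% of 2841 genes were higher and 3.52% lower, Rsad2 (5.80 ± 0.44), Isg15 (3.74 ± 0.30), Rtp4 (3.41 ± 0.28) and Cxcl10 (3.20 ± 0.38) among them. That fit was added then too. Its 25 pairs come from 3 mice, and its filter, too, could admit a gene through the type I-high profiles alone. The count of 13 and these folds are therefore a description, not further support.

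**Figure D5:**
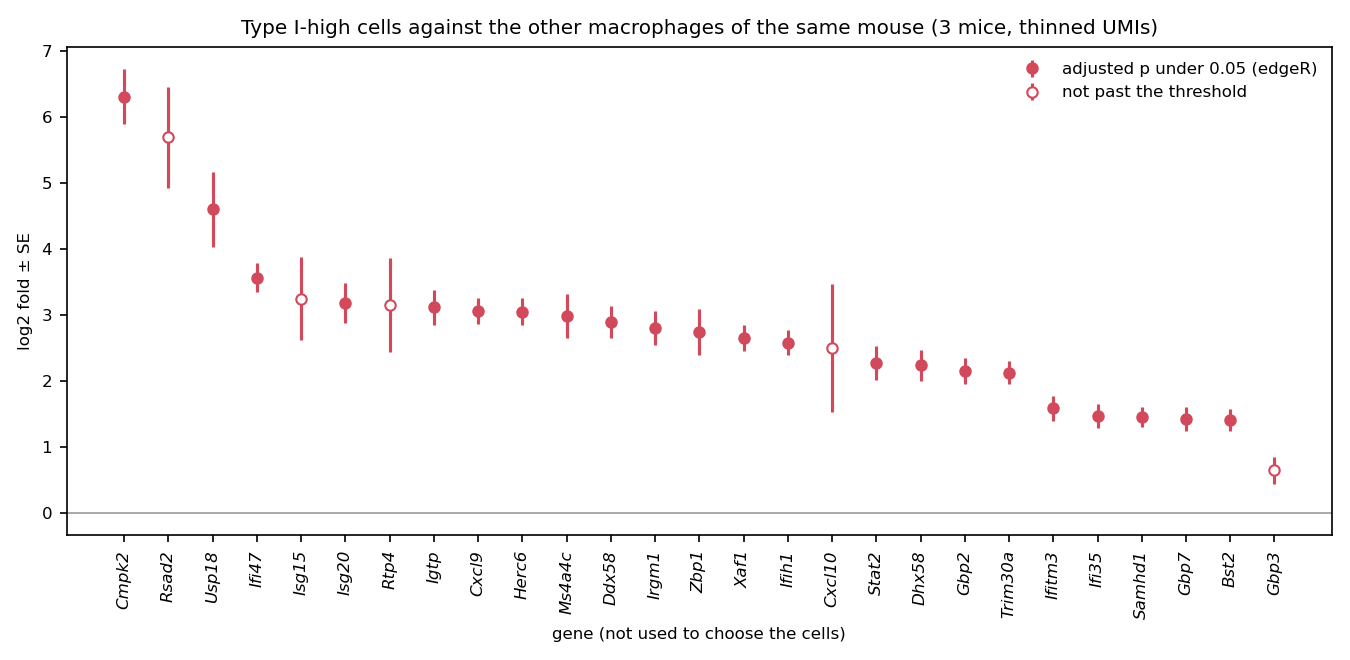
Log2 fold ± SE (edgeR, 3 mice) of the 27 tested members that did not choose the cells, in type I-high cells against other macrophages. All lie above 0, from 0.65 for Gbp3 to 6.31 for Cmpk2, and 22 are filled as past the threshold. The filter could admit a gene that is low in the other macrophages, such as Cmpk2, through the type I-high profiles alone.

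The rest of the pathway was read from lists. Of 21 interferon genes, 18 had 0 UMIs in the 136367541 UMIs of the macrophages, Ifng and each listed numbered Ifna gene among them, which allows up to 0.0220 CPM. Ifnb1, which encodes interferon-beta, had 144 UMIs in 39 cells, 54 of them in 4 cells of state 5 and 40 in 4 cells of state 1. A single cell held 32 of those in state 5, and another held 37 of those in state 1. Ifnk, an interferon of the type I family, had 227 UMIs. Receptor genes were common: Ifnar1 at 192, 181 and 156 CPM, Ifnar2 at 223, 196 and 174, Ifngr1 at 261, 215 and 205 and Ifngr2 at 133, 147 and 177. All 5 tested receptor genes and 14 of 15 signalling genes differed among the states, with the same background of 79.8%. In type I-high cells 0 of 5 receptor genes passed by edgeR, 0 also at an unadjusted p under 0.05, and their median log2 fold was -0.18. Of the 15 signalling genes 4 were higher there and 0 lower, where 2.94% and 0.142% of all genes were called, with Irf7 (3.18 ± 0.33), Irf9 (0.85 ± 0.22) and Irf1 (0.76 ± 0.21) among the higher. Of 63 further interferon-stimulated genes tested, 48 were higher and 0 lower, and of 18 further interferon-gamma genes 11 were higher and 0 lower, against the same background. The filter of that fit could likewise admit a gene through the type I-high profiles alone, so these counts are a description.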

How the data were processed

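Raw UMI counts per gene and barcode were deposited by the authors for tumour macrophages of 3 mice. Per the submitters' processing notes they were made with Cell Ranger 3.0.2 on mm10; the annotation they used is not given in the sources used here. Members and lists were chosen with earlier results of these data known. Barcodes with fewer than 500 genes, or with over 15% of UMIs from mt- genes, were dropped (411, 362 and 451). Scrublet marked 0.144% of cells, which is not taken as a working call, and doublets stayed in. Leiden clustering (scanpy 1.11.5, resolution 1.0, 2000 variable genes, 30 components, 15 neighbours) left out members, pathway, ribosomal and mitochondrial genes. Clusters were named from lists with at least 5 detected markers at 0.5 or more (log2) above the rest. Counts summed per mouse and state were tested in edgeR 4.0.16 (R 4.3.3; TMM, filterByExpr, robust quasi-likelihood, Benjamini-Hochberg over all genes). Mouse was a block because all states of a mouse come from that animal. DESeq2 1.42.0, other filters, resolutions, normalizations and left-out mice were alternatives. The fits were tested on simulated data. Named were all members by role, and in each state up to 4 called in each direction with 1 sign in all mice; others named were chosen after their values were seen. Promoter sequences came from RefSeq and gene positions from GENCODE on mm10. Intervals and floors cover counting error only.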

Additional observations from a re-analysis of the deposited data

Results flagged for a closer look

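UMIs of the members were also counted outside the macrophage states. The limit beside each level covers counting error only; the share of free RNA was not measured, so these counts are not read as expression in those cells. In the 55 tumour epithelium-like cells the summed level of the 8 type I genes was 33.7 CPM (19 UMIs) and that of the interferon-gamma genes 28.3 (16 UMIs), above the 5.31 that a count of 0 allows. In the 9 T cell-like cells the interferon-gamma genes were at 77.7 CPM from 5 UMIs, with a limit of 46.6, while the type I genes had 0 UMIs there. In the 1224 barcodes removed by the filters the type I genes were at 119 CPM (325 UMIs) and the interferon-gamma genes at 29.99 (82 UMIs), above a limit of 1.10.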

How the results depend on the processing

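Of 757 values of 49 named pairs of member and state under other settings, 602 kept their direction and side of the threshold, 150 kept direction only and 5 turned: Ifi47 in state 6 with at least 1000 genes (-0.082), Ifitm3 in state 2 against all other cells (-0.038), Ddx58 in state 8 at resolution 0.5 (-0.067), and Samhd1 in state 7 (0.016) and Oasl1 in state 9 (-0.025) at resolution 1.5. In 13 pairs the call held in every setting that gave a value. The cause of these changes was not tested. Pairs called higher, 63 in all, were 15 with at least 1000 genes, where the states that could be matched had 33 before, 74 with interferon genes kept in clustering (40 before), 102 with no filter and 34 with no replicate block. Pairs called lower, 20 in all, were 30 at 8% mitochondrial UMIs (16 before), 80 against all other cells, 16 (8 before) with interferon genes kept, 53 with no filter, 13 with no replicate block, though all states of a mouse are paired by the animal, 14 at resolution 0.5 (2 before) and 31 without the low-UMI states 10 and 13 (16 before). Leaving out 1 mouse gave 31 to 59 higher and 10 to 22 lower pairs, with 31 higher without mouse 2 and 10 lower without mouse 3. Members higher in state 0, 10 in all, were 2 to 6 in the settings that moved them by over 1.5 times, those in state 4, 12 in all, 3 to 23, and members lower in state 3, 5 in all, 2 to 24. The share of type I-high cells, 4.69%, was 8.93% with at least 2 UMIs, 1.98% with at least 5 and 1.71% after thinning to 2000 UMIs. The gamma-high share, 1.08%, was 2.91% with at least 2, and that among type I-high cells, 7.43%, was 10.7% with at least 2 and 3.04% at 2000. The 22 members higher in type I-high cells were 18 to 27 over cuts, filters and left-out mice, 13 of 13 tested per state and mouse and 22 with no replicate block; 16 of 27 were higher in every setting that gave a value. The members that differed among states, 24, were 16 to 34. Comparisons without low-UMI states, against all other cells, with IFIT and MX genes only, and all tests within type I-high cells were added after seeing the data.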

Other observations

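When the interferon genes were kept in the clustering, 363 cells formed a cluster of their own, led by Rsad2, Ifit3, Ifit2 and Isg15, with 1.06%, 2.94% and 4.21% of the cells of mice 1, 2 and 3. It drew from all 14 states, with 139 of its 363 cells from state 4. Since it was formed on these genes, its levels are a description: it held 60.1% of the IFIT UMIs and 70.4% of those of Cmpk2, but 17.0% of Oasl1, 10.1% of Ifitm3, 8.06% of Samhd1 and 6.47% of Gbp3. It held 21.9% of the Cxcl9 UMIs and 24.3% of those of Cxcl10, against 18.5% of the UMIs of all members together. Cxcl9 was at 8.51, 275 and 53.3 CPM in it and at 2.45, 27.8 and 9.11 in the other macrophages. Cxcl10 was at 953, 347 and 997 against 185, 111 and 83.2. Both were thus higher in the cluster in each mouse, with most of their UMIs in the far more numerous other cells. In mouse 1 the cluster had 7 cells, and all macrophages of that mouse held 28 Cxcl9 UMIs. The Cxcl9 difference in mouse 1 thus rests on very few UMIs.

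Outside the lists, the genes most like the mean of the type I genes (Pearson's r of mouse-centred log2 CPM over the 42 profiles of state and mouse) were Tmed7 (r = 0.62), Usp25 (0.59), Ppil2 (0.59), Cast (0.56) and Cic (0.55). For the mean of the interferon-gamma genes they were Dnajc4 (0.73), Skp1a (0.69), Vps52 (0.67), Pafah1b3 (0.67) and Selplg (0.67). The profiles share libraries and some hold few UMIs, so these values only describe likeness.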
